A study of Homo sapiens with 18 samples.

Results

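The effect of silencing both atypical protein kinase C isoforms was measured in A549 cells, a human line from a lung adenocarcinoma, that received no TGFβ. The comparison set 3 arrays of siPKCiz cells, transfected with siRNA directed at PKCiota and PKCzeta, against 3 arrays of siControl cells, transfected with a control siRNA. These 6 arrays were all those labelled without TGFβ, out of 18 in the series. All cells were grown in 10% fetal bovine serum, and the treated cells were serum starved, given 250 pM TGFβ for 1 h, washed, and kept in 0.2% serum for 7 h or 23 h more. The 0.2% serum and 3 washes are recorded for the untreated groups as well. The labels give no collection time for the untreated cells and do not repeat for them the starvation described for the treated ones. The other 12 arrays, 3 of each siRNA at 8 h and 3 at 24 h, entered the estimate of the spread between replicates and served as separate arrays in which the same siRNA effect could be read.

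Atypical protein kinases C differ from the other members of the family in needing neither calcium nor diacylglycerol. They work in a complex with PAR6 and PAR3, where the small GTPase CDC42 binds PAR6, and this complex sets up apical and basal polarity and tight junctions in epithelial cells. PKCiota is also known as an oncogenic kinase in lung cancer, and PAR6 is a substrate of the type II TGFβ receptor and of atypical PKC. The labels describe a single silencing condition per arm, so loss of the 2 kinases and any other action of these particular siRNAs cannot be told apart.

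The values were RMA intensities (background-corrected and normalized probe set brightness), compared after log2. Of 18377 genes tested, 657 (3.58%) were called, meaning a Benjamini-Hochberg adjusted p under 0.05 in limma. Of these, 390 (2.12%) were higher in siPKCiz and 267 (1.45%) were lower. This balance of directions was not fixed: 364 were higher and 380 lower after quantile normalization, and 305 higher and 319 lower without siControl array 1. At least a 1.5-fold change was reached by 194 called genes (1.06%), 96 higher and 98 lower, and at least a 2-fold change by 29 (0.158%), 18 higher and 11 lower. The intensities of the 6 arrays did not overlap between the arms for 4442 genes (24.2%), with siPKCiz the higher arm in 2523 (13.7%) and the lower in 1919 (10.4%), and 3198 genes (17.4%) had an unadjusted p under 0.05. The count of called genes depended on the replicates: it was 1513 without replicate 1 of all groups, 30 without replicate 2 and 27 without replicate 3. Without a single untreated array it was 516, 240 and 294 when siPKCiz array 1, 2 or 3 was left out, and 624, 335 and 316 when siControl array 1, 2 or 3 was left out. All 657 genes kept their direction in these 9 fits, which reuse most of the arrays on which the genes were called, so the kept direction is no test. Array medians lay between 156.1 and 160.2 and correlations between replicates of an arm between 0.9917 and 0.9976 across genes, and 10 of 10 epithelial markers of A549 cells lay above the array median on all 6 arrays. Of markers of other cells, CD68 (1 of 9 leukocyte genes) and COL1A1 and THY1 (2 of 10 fibroblast genes) did so, while 8 of 8 endothelial genes lay below the median. On all 6 arrays 7 of 9 leukocyte and 6 of 10 fibroblast genes lay below the median. Summed leukocyte intensity was 1443 to 1491 in siPKCiz and 1509 to 1648 in siControl, of which CD68 had means of 720 and 857. Summed fibroblast intensity was 1518 to 1615 and 1580 to 1731, and summed endothelial intensity 520 to 540 and 545 to 579. The part of these differences in the results was not tested.

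Both silenced genes were lower in siPKCiz, PRKCI evenly and PRKCZ unevenly between replicates. PRKCI, which encodes PKCiota and lies on chromosome 3, had intensities of 513, 504 and 479 in siPKCiz replicates 1 to 3, against 2469, 2163 and 2095 in siControl. All 3 silenced arrays lay far below all 3 control arrays. PRKCI fell by 2.17 log2 units (SE 0.0905, 4.49-fold lower; limma adjusted p = 6.53e-11), and the same-number differences were -2.27, -2.10 and -2.13 in replicates 1 to 3. In RNA from whole cultures, fewer cells expressing a gene and less of its RNA per cell cannot be told apart. PRKCZ, which encodes PKCzeta and lies on chromosome 1, had intensities of 242, 142 and 162 in siPKCiz, against 265, 398 and 490 in siControl. The arms did not overlap, but the replicate 1 arrays were close to each other, with the highest silenced value and the lowest control value. PRKCZ fell by 1.07 log2 units (SE 0.243, 2.10-fold lower; limma adjusted p = 0.0182), with same-number differences of -0.13 in replicate 1, -1.49 in replicate 2 and -1.60 in replicate 3. Without replicate 1, which was singled out because PRKCZ fell less in it, the PRKCZ change was -1.54, given with no test. Its call was lost in 6 of the 9 fits that left arrays out: the change was -0.86 without replicate 2 (adjusted p = 0.396) and -0.81 without replicate 3 (adjusted p = 0.414). It was -0.91 and -1.01 without siPKCiz array 2 or 3 (adjusted p = 0.106 and 0.0843), and -1.02 and -0.87 without siControl array 2 or 3 (adjusted p = 0.0726 and 0.0985).

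**Figure D1:**
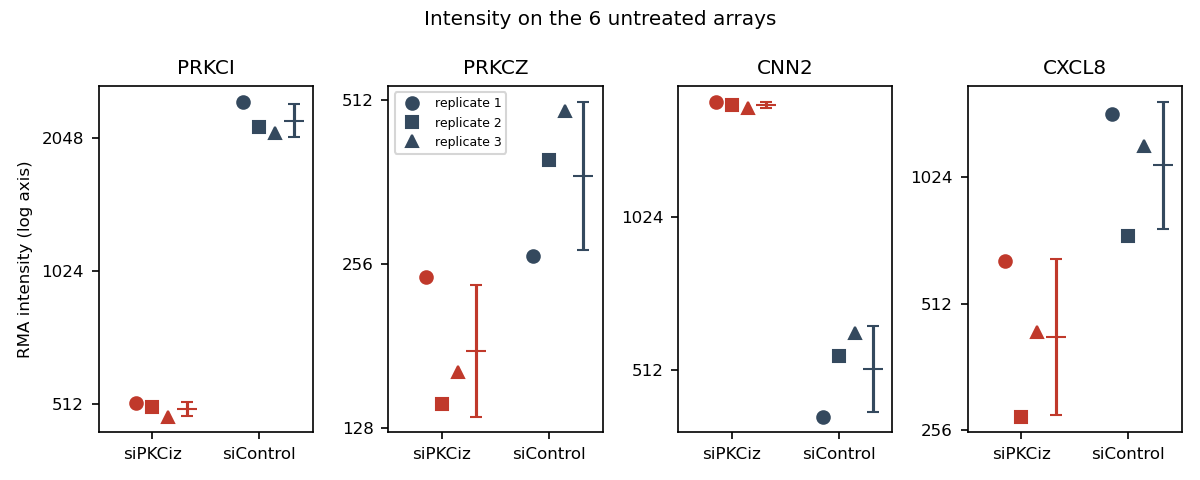
RMA intensity (log axis) of PRKCI, PRKCZ, CNN2 and CXCL8 on the 6 untreated arrays, siPKCiz left and siControl right. Each point is 1 array, the marker shape gives the replicate number, and the bar beside each group is the mean ± SD of log2 intensity (n = 3). For PRKCZ the replicate 1 arrays lie at 242 in siPKCiz and 265 in siControl.

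Of the other kinases of the family PRKCQ rose and PRKCA fell, and of the partners of atypical PKC CDC42 rose. Of 11 measured genes for other PKC isoforms and related kinases, 1 rose and 1 fell (18.2% called, against 3.58% of all genes), with a median change of 0.015 against -0.0005 over all genes tested. PRKCQ, which encodes PKCtheta, an isoform known from T cell signalling, had intensities of 408, 446 and 429 in siPKCiz, against 243, 295 and 269 in siControl, and rose by 0.67 ± 0.103 log2 units (SE; limma adjusted p = 0.001). PRKCA, the classical isoform PKCalpha, had 2829, 2620 and 2489 in siPKCiz, against 3206, 3444 and 3121 in siControl, a change of -0.30 ± 0.0776 (SE; limma adjusted p = 0.0381), and its call was lost in 7 of the 9 fits with arrays left out. Among 29 polarity proteins and partners 1 rose and none fell (3.45% called, close to the 3.58% of all genes). Arms that did not overlap were found for 8 of the 29 with siPKCiz higher and 1 with siPKCiz lower, against 13.7% and 10.4% of all genes. The gene that rose was CDC42, at 702, 698 and 770 in siPKCiz and 475, 526 and 577 in siControl, a change of 0.46 ± 0.0821 (SE; limma adjusted p = 0.00344). Without replicate 2 and without replicate 3 the calls of PRKCQ (0.71 and 0.67; limma adjusted p = 0.0788 and 0.0705) and CDC42 (0.49 in both; adjusted p = 0.143 and 0.117) were lost. RAC1, a GTPase that binds PAR6 as CDC42 does, differed by 0.37 and the scaffold gene PARD3 by 0.21, and neither passed the test (limma adjusted p = 0.0971 and 0.0854). PARD6B, one of the genes for PAR6, was the lowest of the list at -0.26 (limma adjusted p = 0.0994). None of 11 genes linked to PKCiota in lung cancer was called. Among them the RNA-binding protein gene ELAVL1 differed by 0.23 (limma adjusted p = 0.0615) and the protease gene MMP10 by -0.40 (adjusted p = 0.191).

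The 12 highest and 12 lowest genes were taken from called genes whose arms did not overlap, so the lack of overlap is no result for them. Outside the kinase family the highest gene was CNN2, which encodes the actin-binding protein calponin 2. Its intensities were 1729, 1701 and 1683 in siPKCiz, against 415, 546 and 605 in siControl, and it rose by 1.73 ± 0.113 log2 units (SE, 3.31-fold; limma adjusted p = 5.15e-08). FOXN3, a forkhead transcription factor gene, had 1067, 1170 and 1094 in siPKCiz and 352, 378 and 369 in siControl, a rise of 1.60 ± 0.0793 (SE, 3.03-fold; limma adjusted p = 6.51e-10). The control arrays of CNN2 were spread more widely (SD 0.28 log2 units, n = 3) than those of FOXN3 (SD 0.0535, n = 3), and both genes were called in all 9 fits with arrays left out. BCAS1, first described as amplified in breast carcinoma, had its first silenced array above the other two, at 1139, 807 and 775 in siPKCiz and 315, 267 and 329 in siControl, with a rise of 1.56 ± 0.224 (SE; limma adjusted p = 6.96e-04). CYP4F3, which encodes a leukotriene-inactivating cytochrome P450, had 816, 799 and 782 in siPKCiz and 462, 338 and 229 in siControl and rose by 1.28. WDTC1, a receptor subunit of a ubiquitin ligase, had 360, 369 and 372 in siPKCiz and 142, 158 and 158 in siControl and rose by 1.26. CTSH, the lysosomal protease cathepsin H, had 548.9, 521 and 566 in siPKCiz and 214, 250 and 280 in siControl and rose by 1.14. In CYP4F3 the control arrays differed from each other more than the silenced arrays did. The endoplasmic reticulum membrane protein gene TMCC1 (1.14), the gene for the growth factor KITLG (1.15), INTS9 (1.12), a subunit of the Integrator complex that trims small nuclear RNAs, and the stress-induced regulator gene NUPR1 (1.09) completed the 12 highest, together with FGA and FGB. KITLG had 246, 372 and 280 in siPKCiz and 148, 126 and 125 in siControl, and NUPR1 had 1123, 1034 and 868 in siPKCiz and 592, 451 and 387 in siControl. In KITLG the second siPKCiz array was the highest, and the siControl arrays lay below the array medians. WDTC1, CTSH, TMCC1 and INTS9 were also called in all 9 fits with arrays left out. Without replicate 2 the calls of BCAS1 (1.54), CYP4F3 (1.29) and NUPR1 (1.04) were lost, at limma adjusted p from 0.0539 to 0.0819. Without replicate 3 those of BCAS1 (1.73), CYP4F3 (1.03), NUPR1 (1.06) and KITLG (1.14) were lost, at adjusted p from 0.0593 to 0.082.

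FGA and FGB encode chains of fibrinogen, a plasma protein made mainly by liver cells and also by lung epithelial cells in inflammation. FGA had intensities of 1545, 2174 and 2170 in siPKCiz, against 1039, 759 and 797 in siControl, and rose by 1.18 ± 0.300 (SE; limma adjusted p = 0.0353). FGB had 2539, 3049 and 3153 in siPKCiz, against 2108, 1053 and 1055 in siControl, and rose by 1.13 ± 0.278 (SE; limma adjusted p = 0.0294). In both genes replicate 1 stood apart, with a control array above the other two and a smaller difference: 0.57 against 1.52 and 1.44 for FGA, and 0.27 against 1.53 and 1.58 for FGB. The call of each was lost in 6 of the 9 fits with arrays left out, with changes from 1.01 to 1.48 for FGA and from 0.90 to 1.56 for FGB.

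Behind PRKCI, the lowest gene was CXCL8, which encodes the neutrophil-attracting chemokine interleukin 8. It had 647, 276 and 438 in siPKCiz, against 1452, 741 and 1215 in siControl, and fell by 1.36 log2 units (SE 0.294, 2.56-fold lower; limma adjusted p = 0.014). The 3 same-number differences were alike, from -1.17 to -1.47, although replicate 2 was the lowest array of both arms. SLC4A8, a sodium-driven bicarbonate transporter gene, had 123, 143 and 146 in siPKCiz and 286, 336 and 318 in siControl, a change of -1.19 ± 0.122 (SE; limma adjusted p = 2.32e-05). ITGA2, the collagen-binding integrin subunit alpha 2, had 3016, 2322 and 2767 in siPKCiz and 6555, 5140 and 5795 in siControl, a change of -1.11 ± 0.146 (SE; limma adjusted p = 3.19e-04). For both genes the same-number differences were close, from -1.23 to -1.13 for SLC4A8 and from -1.15 to -1.07 for ITGA2. CCL2, the monocyte-attracting chemokine, had 2687, 2699 and 3422 in siPKCiz and 4739, 6774 and 6822 in siControl and fell by 1.05 log2 units. NKIRAS1, a Ras-like protein that binds the NF-kB inhibitors of the IkB family, had 451, 361 and 403 in siPKCiz and 761, 964 and 841 in siControl and fell by 1.08 log2 units. SLC4A8 was called in all 9 fits with arrays left out. The calls of CXCL8 (-1.32 and -1.30) and CCL2 (-0.91 and -1.07) were lost without replicate 2 and without replicate 3, that of NKIRAS1 (-0.91; limma adjusted p = 0.061) without replicate 2 and that of ITGA2 (-1.13; adjusted p = 0.0589) without replicate 3.

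The remaining genes among the 12 lowest were HSPA4L (-1.15), a chaperone of the HSP110 family, EXOC5 (-1.06), a subunit of the exocyst that tethers secretory vesicles, LIN28B (-1.04), a blocker of let-7 microRNA maturation, NPTX1 (-0.99), a neuronal pentraxin, and CST1 (-1.18), a secreted inhibitor of cysteine proteases. HSPA4L had 1655, 857 and 970 in siPKCiz and 1777, 3010 and 2805 in siControl, and EXOC5 had 2130, 1379 and 1382 in siPKCiz and 2410, 4521 and 3379 in siControl. Replicate 1 of both genes showed little difference between the arms. LIN28B had 293, 225 and 263 in siPKCiz and 371, 662 and 610 in siControl, and NPTX1 had 366, 377 and 379 in siPKCiz and 493, 841 and 992 in siControl, with the first control array the lowest of its arm in both. CST1 had 869, 323 and 795 in siPKCiz and 1576, 1118 and 1471 in siControl (limma adjusted p = 0.0491). Without siPKCiz array 2 its change was -0.72, and its call was lost in 7 of the 9 fits with arrays left out. The calls of HSPA4L (limma adjusted p = 0.0393) and EXOC5 (adjusted p = 0.0427) were each lost in 6 of 9, with changes from -1.67 to -0.82 and from -1.50 to -0.73. Without replicate 2 and without replicate 3 the calls of LIN28B (-0.78 and -0.95) and NPTX1 (-0.91 and -0.79) were lost.

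**Figure D2:**
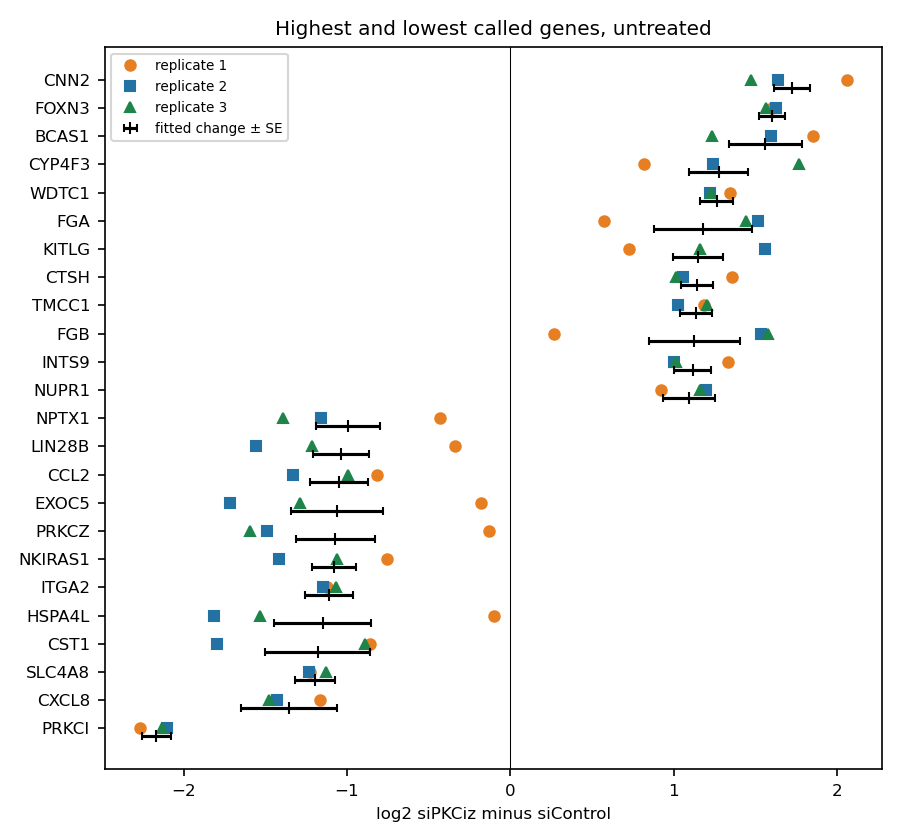
Log2 change (siPKCiz minus siControl, x axis) of the 12 highest and 12 lowest called genes whose arms did not overlap. Coloured points are the same-number differences of the 3 replicates and the black mark is the fitted change ± SE; for FGB, HSPA4L, EXOC5 and PRKCZ the replicate 1 point lies near 0.

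Of the 657 called genes, 19 were called in each of the 9 fits that left out a replicate number or an array, 15 of them higher and 4 lower. This group was chosen after the values were seen. The 4 lower genes were PRKCI, SLC4A8, NT5E and NCR3LG1. NT5E, the ectoenzyme CD73 that makes adenosine, had 2040, 1946 and 2260 in siPKCiz and 3610, 3751 and 3738 in siControl. NCR3LG1, the surface ligand B7-H6 of the natural killer cell receptor NKp30, had 828, 942 and 894 in siPKCiz and 1784, 1658 and 1706 in siControl. Both groups of arrays were tight, and the changes were -0.83 ± 0.101 for NT5E and -0.95 ± 0.0989 for NCR3LG1 (SE; limma adjusted p = 1.42e-04 and 2.63e-05). The higher genes included CNN2, FOXN3, WDTC1, CTSH, TMCC1 and INTS9. Others were TGS1 (0.87), which adds the trimethylguanosine cap to small nuclear RNAs, DCP1A (0.82), a cofactor of mRNA decapping, RBFOX2 (0.74), a splicing regulator, NFIC (0.70) and TCFL5 (0.78), transcription factors, and GATAD2A (0.68), a subunit of the NuRD complex. The remaining ones were KCTD18 (0.97), HCN2 (0.92), a pacemaker ion channel, and STX8 (0.80), a SNARE of endosomal fusion. DCP1A was among the most even, at 1288, 1273 and 1306 in siPKCiz against 734, 708 and 750 in siControl (limma adjusted p = 7.27e-05).

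Target genes of NF-kB, the transcription factor family that drives inflammatory cytokines, included no gene that rose. Of 21 measured genes 0 rose and 4 fell, which is 19% called against 3.58% of all genes, with 1.45% called lower. The arms did not overlap for 10 genes, all lower in siPKCiz, against 24.2% of all genes in either direction and 10.4% lower. The fitted change was negative for 21 of 21, from -0.04 for NFKB1 to -1.36 for CXCL8, with a median of -0.317, against -0.0005 over all genes. Besides CXCL8 and CCL2, ICAM1, the leukocyte adhesion receptor, fell by 0.80 log2 units (SE 0.122; limma adjusted p = 0.001), with 147, 127 and 151 in siPKCiz and 262, 197 and 290 in siControl. RELB, a subunit of the alternative NF-kB pathway, fell by 0.66 log2 units (SE 0.121; limma adjusted p = 0.00474), with 216, 280 and 280 in siPKCiz and 369, 383 and 470 in siControl. The arms of these 4 genes did not overlap, so a negative difference in each of the 3 replicates was fixed and is no further result. TNFAIP3, which encodes the feedback inhibitor A20, differed by -0.62 without passing the test (limma adjusted p = 0.066), although its arms did not overlap, and CXCL1 by -0.77 with arms that overlapped (adjusted p = 0.124). NFKB2 differed by -0.51 (adjusted p = 0.0961). Without replicate 3 all 4 calls were lost, and without replicate 2 all but that of ICAM1. In total they were lost in 5 of 9 fits with arrays left out for CXCL8, in 2 for CCL2 and RELB, and in 1 for ICAM1; the changes in those fits ran from -1.66 to -1.04 for CXCL8, -1.22 to -0.91 for CCL2, -0.76 to -0.53 for RELB and -0.96 to -0.68 for ICAM1.

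The promoters of CXCL8, ICAM1 and TNFAIP3 are shown because the letters of an NF-kB motif can be read in them close to the gene start. CXCL8 and ICAM1 were the 2 called list genes with a promoter sequence at hand. CCL2 and RELB, which also fell, had none. TNFAIP3 was not called, although its arms did not overlap. Each promoter shown is the 250 bases upstream of the start in RefSeq (GRCh38.p14, plus strand), with matches to GGNNNTTCC or its reverse GGAANNNCC in capitals.
CXCL8, chr4:73740319-73740568: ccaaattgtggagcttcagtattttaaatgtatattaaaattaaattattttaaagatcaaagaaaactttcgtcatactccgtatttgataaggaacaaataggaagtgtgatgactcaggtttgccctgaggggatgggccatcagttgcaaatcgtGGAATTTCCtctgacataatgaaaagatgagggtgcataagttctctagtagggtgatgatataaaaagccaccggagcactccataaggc
ICAM1, chr19:10270870-10271119: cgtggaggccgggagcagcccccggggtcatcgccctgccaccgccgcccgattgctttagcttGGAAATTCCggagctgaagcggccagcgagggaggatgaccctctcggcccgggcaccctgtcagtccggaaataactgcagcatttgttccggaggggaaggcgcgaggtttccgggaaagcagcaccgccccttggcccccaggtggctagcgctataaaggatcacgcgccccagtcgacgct
TNFAIP3, chr6:137867009-137867258: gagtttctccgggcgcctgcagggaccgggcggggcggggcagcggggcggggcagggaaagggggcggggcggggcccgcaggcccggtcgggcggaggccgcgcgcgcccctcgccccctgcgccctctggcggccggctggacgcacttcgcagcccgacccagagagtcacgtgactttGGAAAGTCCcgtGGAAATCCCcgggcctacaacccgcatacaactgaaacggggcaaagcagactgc
The match in CXCL8 lies 91 to 83 bases upstream of the start and the one in ICAM1 186 to 178 bases upstream. TNFAIP3 holds 2 matches, at 67 to 59 and 55 to 47 bases upstream. On either strand the motif was found in 15 of the 18 list members with a promoter in the table used (83.3%) and in 3328 of 14210 tested genes (23.4%); the 2 forms are each other's reverse complement and were counted once where they coincided. The list was drawn up from known NF-kB targets, so this share describes the list and not its change.

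TGFBR2, TGFBR1, ACVR2B and SMURF2 fell among the TGFβ receptor and SMAD genes, ACVR1 rose, and the other 16 did not pass the test. TGFβ binds the type II receptor, which activates the type I receptor, and this in turn phosphorylates SMAD proteins. Of 21 measured genes 1 rose and 4 fell (23.8% called, against 3.58% of all genes), and the median change was -0.08. TGFBR2, the type II receptor, had 2858, 2493 and 2336 in siPKCiz, against 3976, 4643 and 4735 in siControl, and fell by 0.80 log2 units (SE 0.114, 1.74-fold lower; limma adjusted p = 6.62e-04). TGFBR1, the type I receptor, had 1943, 1450 and 1479 in siPKCiz, against 2388, 2917 and 2986 in siControl, and fell by 0.77 log2 units (SE 0.154; limma adjusted p = 0.00829). In both receptors the arms did not overlap and the difference was smallest in replicate 1, at -0.48 for TGFBR2 and -0.30 for TGFBR1. ACVR2B, an activin type II receptor, had 98.8, 96.9 and 111 in siPKCiz and 141, 162 and 173 in siControl and fell by 0.63 log2 units. Its siPKCiz values lay below the array medians. SMURF2, a ubiquitin ligase that removes receptors and SMADs, had 2014, 1973 and 1960 in siPKCiz and 3113, 3097 and 2964 in siControl and fell by 0.63 log2 units. The gene that rose was ACVR1, a type I receptor of the BMP branch, by 0.31 (limma adjusted p = 0.0257), and its call was lost in 6 of the 9 fits with arrays left out. TGFBR1 lost its call in 3 of 9 (without replicate 2, replicate 3 or siPKCiz array 2) and TGFBR2, ACVR2B and SMURF2 in 2 each (without replicate 2 and without replicate 3), with changes from -1.01 to -0.65 for TGFBR1, -0.96 to -0.69 for TGFBR2, -0.71 to -0.56 for ACVR2B and -0.65 to -0.61 for SMURF2.

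Of 19 TGFβ ligands and early target genes 1 fell (5.26%, against 3.58% of all genes called), IL11, an IL6 family cytokine, with 586, 503 and 686 in siPKCiz and 972, 951 and 1120 in siControl (change -0.79 ± 0.126, SE; limma adjusted p = 0.00155). None of 12 BMP ligands and target genes was called, and BMP6 differed by 0.46 (limma adjusted p = 0.0506). None of 13 genes for transcription factors that drive the epithelial to mesenchymal transition (EMT) was called either. SNAI1 differed by 0.44 (limma adjusted p = 0.2), SNAI2 by -0.36 (adjusted p = 0.303) and ZEB2 by -0.27 (adjusted p = 0.0627). Of 18 mesenchymal markers 11.1% were called: the actin-binding protein gene CALD1 rose (0.40; limma adjusted p = 0.037) and the matrix protein gene SPARC fell (-0.60; adjusted p = 0.0423); their calls were lost in 8 and 7 of the 9 fits with arrays left out. Of 30 epithelial junction and keratin genes 1 rose and 1 fell (6.67% called). MARVELD2, the tricellular junction protein tricellulin, had 824, 927 and 792 in siPKCiz and 654, 586 and 482 in siControl (0.57; limma adjusted p = 0.00585). CLDN12, a claudin, had 1716, 1332 and 1550 in siPKCiz and 2626, 2759 and 3268 in siControl (-0.91; limma adjusted p = 8.63e-04). Without replicate 2 and without replicate 3 the calls of IL11 (-0.72 and -0.82), MARVELD2 (0.52 and 0.50) and CLDN12 (-0.84 and -0.83) were lost. CDH1, which encodes E-cadherin and was picked after its values were seen, differed by 0.34 with arms that overlapped (adjusted p = 0.313).

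Genes of the matrix, its proteolysis and its receptors moved in both directions. Of 34 matrix genes 2 rose and 5 fell (20.6% called, against 3.58% of all genes), with a median change of -0.095. Plasminogen activators turn plasminogen into the protease plasmin. PLAU, the activator urokinase, had 1230, 1472 and 1504 in siPKCiz and 2376, 2227 and 2232 in siControl, a change of -0.71 ± 0.127 (SE; limma adjusted p = 0.00382). PLAUR, its receptor, had 1452, 1176 and 1282 in siPKCiz and 2241, 1963 and 2030 in siControl, a change of -0.68 ± 0.101 (SE; limma adjusted p = 8.35e-04). PLAT, the tissue activator, had 299, 386 and 387 in siPKCiz and 541, 567 and 612 in siControl, a change of -0.69 ± 0.143 (SE; limma adjusted p = 0.0107). The arms of all 3 were apart, and for PLAU and PLAT the difference was largest in replicate 1. The laminin chain genes LAMC1 (-0.55; limma adjusted p = 0.0243) and LAMB1 (-0.42; adjusted p = 0.0368) also fell. LUM, the proteoglycan lumican, rose by 0.76 with 245, 248 and 271 in siPKCiz and 173, 135 and 145 in siControl, and the elastic fibre gene FBLN5 rose by 0.51. Among 31 integrin and actin genes 2 rose and 2 fell (12.9% called, against 3.58% of all genes). Beside ITGA2, ITGA3, the laminin-binding subunit alpha 3, had 3684, 3397 and 3260 in siPKCiz and 5109, 5175 and 5177 in siControl (-0.58; limma adjusted p = 0.00188). ITGB8, a partner of integrin alpha v, had 333, 221 and 214 in siPKCiz and 156, 141 and 137 in siControl (0.80; limma adjusted p = 0.00628), and CFL1, the actin-severing protein cofilin, had 4864, 5334 and 6105 in siPKCiz and 3614, 3572 and 3601 in siControl (0.59; limma adjusted p = 4.29e-04). Without replicate 2, and also without replicate 3, each of the matrix and integrin genes with values here lost its call, with changes of -0.76 and -0.77 for PLAU, -0.64 and -0.68 for PLAUR, -0.76 and -0.70 for PLAT, 0.70 and 0.69 for LUM, -0.57 and -0.54 for ITGA3, 0.87 and 0.87 for ITGB8, and 0.60 and 0.50 for CFL1 (limma adjusted p from 0.0762 to 0.262). PLAT also lost it without siPKCiz array 1 (-0.57) or siControl array 3 (-0.64), FBLN5 in 5 of the 9 fits, LAMC1 in 6 and LAMB1 in 7. The siControl arrays of ITGB8 lay below the array medians.

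NRF2 target genes, which encode enzymes against oxidants and electrophiles, held more genes called higher than any other of the 28 lists. Of 21 measured genes 5 rose and none fell (23.8% called, against 3.58% of all genes, with 2.12% called higher). A positive fitted change was found for 18 of 21, and the median was 0.153, against -0.0005 over all genes. HMOX1, heme oxygenase 1, had 1445, 1677 and 1455 in siPKCiz, against 695, 807 and 780 in siControl, and rose by 1.00 ± 0.145 (SE, 2.01-fold; limma adjusted p = 6.97e-04). GCLM, the modifier subunit of the enzyme that starts glutathione synthesis, had 2863, 3212 and 2927 in siPKCiz and 1891, 1994 and 1695 in siControl and rose by 0.69 ± 0.101 (SE; limma adjusted p = 7.65e-04). SRXN1, sulfiredoxin, had 2872, 3279 and 3131 in siPKCiz and 2032, 2241 and 2093 in siControl and rose by 0.54. OSGIN1, induced by oxidative stress, rose by 0.60 and the efflux transporter gene ABCC1 by 0.33 (limma adjusted p = 0.00223 and 0.0301). The aldo-keto reductase, NQO1 and PGD genes of the list did not pass the test, and several differed in sign between replicate 1 and replicate 3, as the plot of list members shows. ABCC1 lost its call in 8 of the 9 fits with arrays left out, with changes from 0.27 to 0.37. HMOX1, GCLM, SRXN1 and OSGIN1 lost theirs in 2 of 9, without replicate 2 and without replicate 3, with changes from 0.93 to 1.06, 0.63 to 0.74, 0.50 to 0.60 and 0.51 to 0.70.

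**Figure D3:**
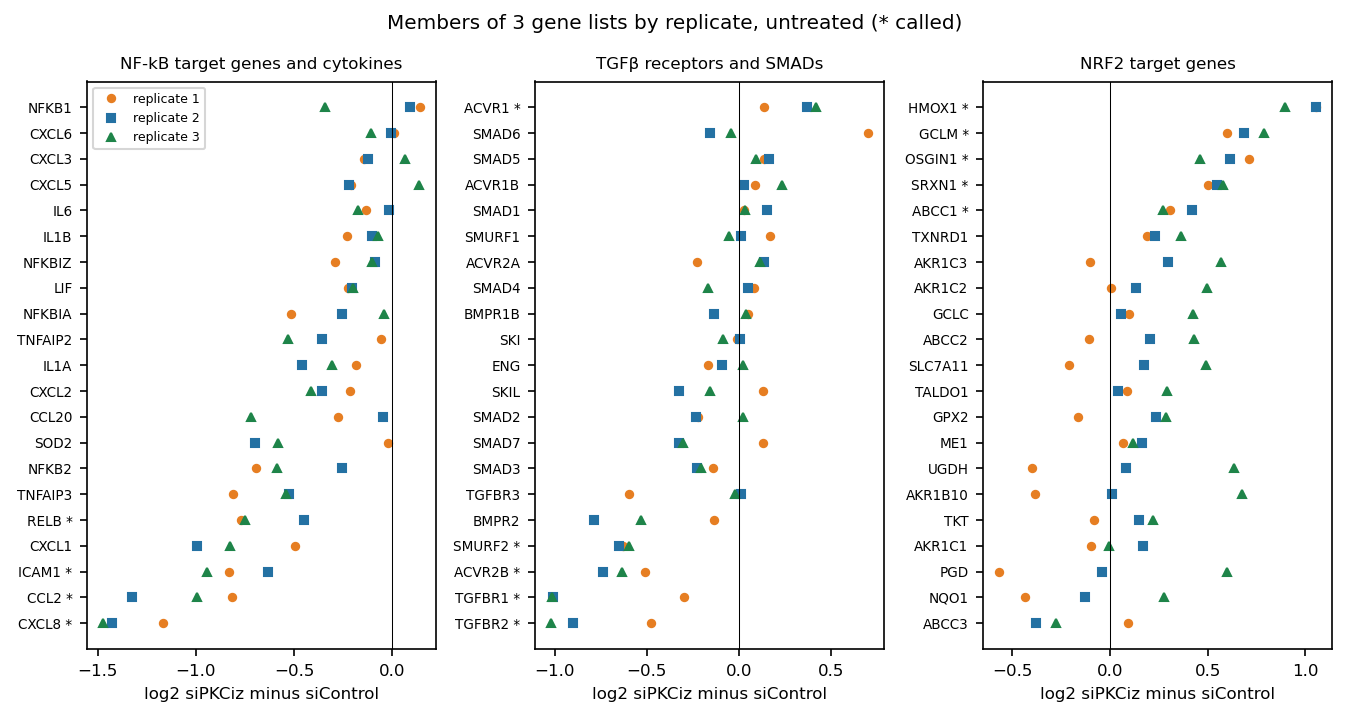
Log2 change (siPKCiz minus siControl, x axis) of every measured member of 3 gene lists, 1 row per gene and 1 point per replicate, with called genes starred. All 3 replicates of CXCL8, CCL2, ICAM1 and RELB lie below 0 and those of HMOX1, GCLM, OSGIN1, SRXN1 and ABCC1 above 0. This follows from arms that do not overlap.

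In the other lists between 0 and 3 genes were called, and their shares are given against 3.58% of all genes. Among 25 genes of ERK feedback and immediate early response 2 fell, the phosphatase gene DUSP1 (-0.44; limma adjusted p = 0.0107) and the Ras pathway inhibitor gene SPRY4 (-0.68; adjusted p = 0.0108), which is 8% of the list, and the median was -0.169. Only 5 of these 25 had a positive fitted change. Their arms did not overlap for 9 genes, all lower in siPKCiz, against 24.2% of all genes in either direction and 10.4% lower. Of 24 hypoxia and glycolysis genes 2 rose and 1 fell (12.5%): the vasodilator peptide gene ADM (0.50) and the glucose transporter gene SLC2A1 (0.42) rose, while SLC2A3, another glucose transporter gene, fell by 0.95 log2 units with 943, 1122 and 1220 in siPKCiz and 1630, 2373 and 2429 in siControl. Of 18 BCL2 family and cell death genes the death-promoting BCL2L11 (0.57) rose and the survival gene BCL2A1 (-0.64) fell (11.1% called), and of 16 p53 target genes the death receptor gene TNFRSF10B (-0.51) fell (6.25%). GDF15, a stress cytokine on the p53 list, had 4502, 3654 and 3897 in siPKCiz and 3187, 1592 and 1784 in siControl, a difference of 0.94 that missed the threshold (limma adjusted p = 0.113). None of 40 cell cycle and replication genes was called, with a median of 0.052, and MKI67 (0.32; adjusted p = 0.103) and PCNA (0.29; adjusted p = 0.132) had the lowest p among them. None of 20 genes of the unfolded protein and integrated stress response was called, although 19 of 20 had a positive fitted change. The median was 0.158, against -0.0005 over all genes. Arms that did not overlap were found for 1 of the 20, with siPKCiz higher, against 13.7% of all genes. Single genes, 3.45% to 7.69% of a list, rose among 15 sterol synthesis genes (ACAT2, an acetyl-CoA acetyltransferase, 0.38), 29 interferon response genes (IFIT1, which binds foreign RNA, 0.38), 27 genes of endocytosis and receptor traffic (ZFYVE16, an endosomal protein, 0.35) and 13 genes of A549 and alveolar type 2 cells (LAMP3, a lysosomal membrane protein, 0.50). IFIT1 and LAMP3 lay below the array medians in both arms. Of 23 YAP and TEAD target genes NT5E fell (4.35%), and of 10 fibroblast markers LUM rose and THY1 fell by 0.78 log2 units (20%). None of 9 leukocyte and 8 endothelial markers was called. Without replicate 2, and also without replicate 3, every call in this paragraph was lost except that of NT5E.

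**Figure D4:**
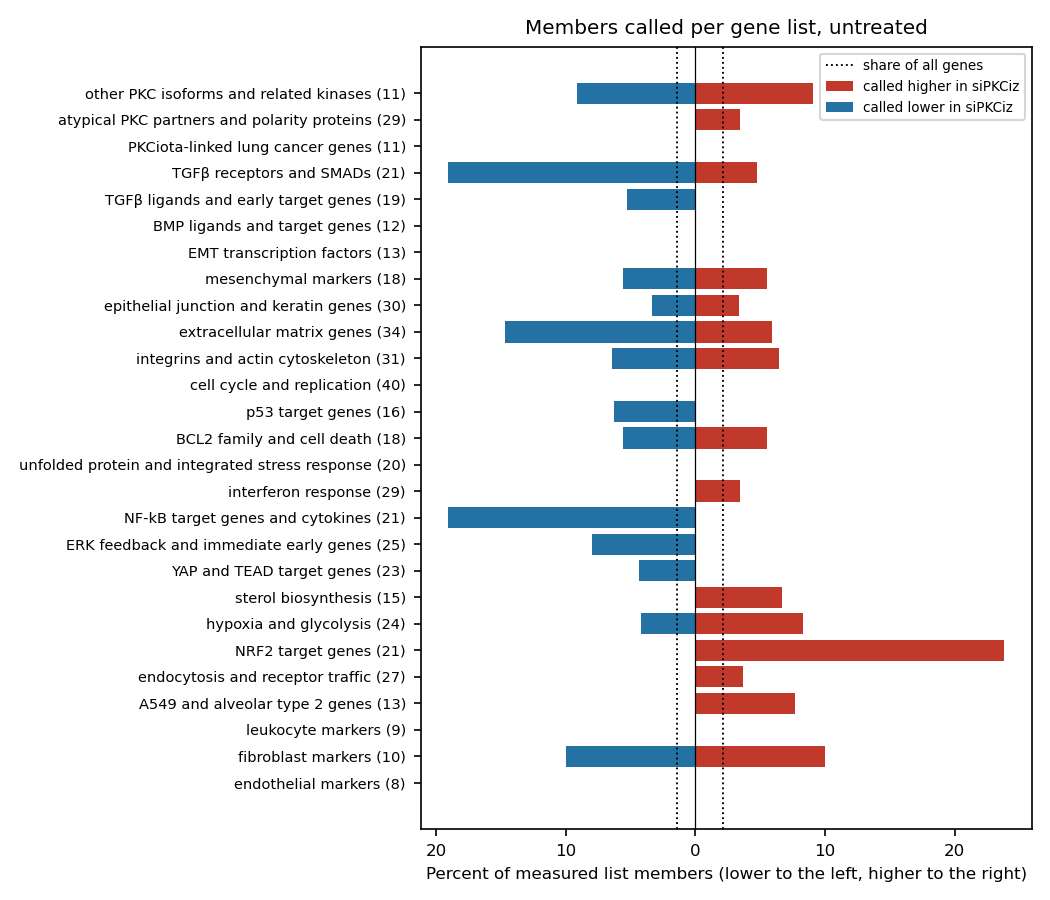
Share of measured members called lower (left) and higher (right) in siPKCiz, in percent, for 27 gene lists, with the number of measured members in brackets; dotted lines mark the share of all genes, 1.45% lower and 2.12% higher. The TGFβ receptor and NF-kB lists have the longest bars to the left and the NRF2 list the longest to the right.

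Replicate 1 differed from replicates 2 and 3. Across the 18377 genes, which are not independent replicates, the same-number changes of replicates 2 and 3 correlated at 0.646, those of replicates 1 and 2 at 0.337 and those of replicates 1 and 3 at 0.247. The median size of a change over all genes was 0.165 log2 units in replicate 1, 0.109 in replicate 2 and 0.137 in replicate 3, and 60, 80 and 81 genes differed by at least 1 log2 unit. The 390 genes called higher had median changes of 0.472, 0.441 and 0.469 in replicates 1 to 3, while the 267 called lower had -0.364, -0.589 and -0.564. In replicate 1, 9 of the genes called lower reached a fall of 1 log2 unit, against 32 in replicate 2 and 28 in replicate 3. The change in replicate 1 was under 0.5 times the mean of replicates 2 and 3 for 89 of the 267 lower genes and 51 of the 390 higher ones, and at least as large for 74 and 196. These genes were chosen with all 3 replicates in the fit, so the counts describe them only.

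Genes picked on replicates 2 and 3 alone are listed as a description. A value used for picking tends to be larger than one that was not, so their counts in replicate 1 support no difference between replicates. Among 10939 genes whose mean lay at or above the array median, 33 were lower by at least 1 log2 unit in both replicates 2 and 3, and 4 of these reached that size in replicate 1 while 8 had the opposite sign. Another 18 were higher by that much in both, of which 7 reached it in replicate 1 and 0 had the opposite sign. RIMOC1, a subunit of the MON1-CCZ1 complex that activates RAB7, had 2513, 1413 and 1572 in siPKCiz and 2586, 5118 and 4385 in siControl, with differences of -0.04, -1.86 and -1.48 (limma adjusted p = 0.0624 for the 3 together). LPCAT3, a phospholipid remodelling enzyme gene, had 6159, 3807 and 4466 in siPKCiz and 7820, 11686 and 11363 in siControl, with differences of -0.34, -1.62 and -1.35 (limma adjusted p = 0.0604). As with PRKCZ, HSPA4L and EXOC5, the first siPKCiz array was the highest of its arm and the first siControl array the lowest of its own. In the other direction, the genes furthest apart in replicate 1 beside CNN2, BCAS1 and PRKCI were the SEPT5-GP1BB readthrough (1.90, against 0.02 and -0.01 in replicates 2 and 3), the cytokine receptor gene CRLF2 (-2.25, against -0.26 and -0.26) and RAB39B, a GTPase of vesicle traffic (-1.30, against -0.75 and -0.65). Of the last 3 only RAB39B was called, at -0.90 ± 0.126 (SE; limma adjusted p = 5.68e-04), with 128, 129 and 147 in siPKCiz and 315, 217 and 231 in siControl, and without replicate 2 its call was lost (-0.98; limma adjusted p = 0.0589).

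**Figure D5:**
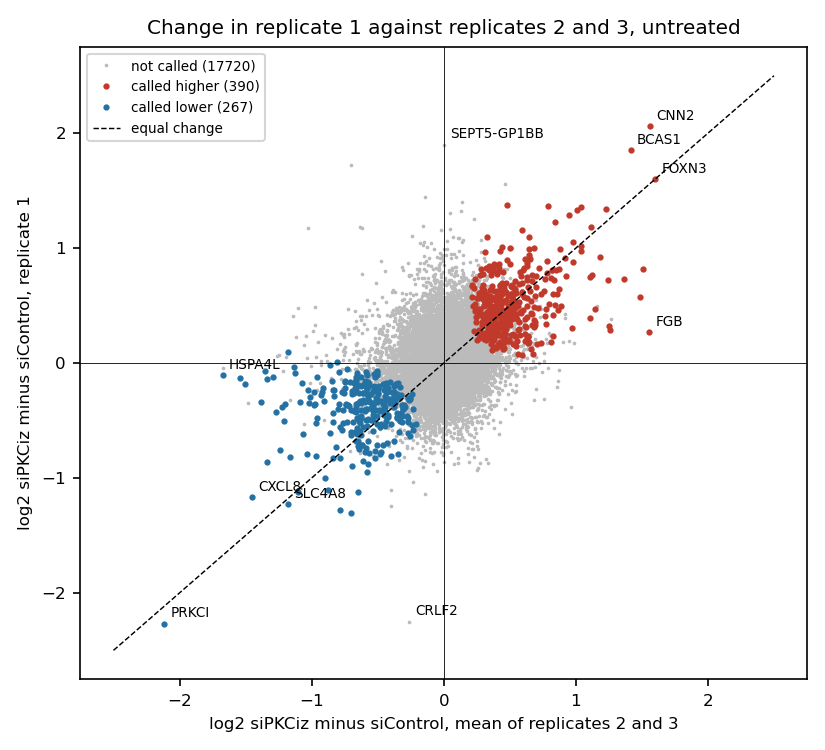
Log2 change (siPKCiz minus siControl) of every gene in replicate 1 (y axis) against the mean of replicates 2 and 3 (x axis), with called genes in colour and a dashed line of equal change. Many genes called lower lie between the dashed line and 0 on the y axis, whereas the genes called higher lie on both sides of the line, with medians of 0.472 in replicate 1 and 0.441 and 0.469 in the others.

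The same siRNA comparison was read in the arrays given TGFβ, which share no array with the untreated comparison but share its estimate of the spread. Of the 390 genes called higher without TGFβ, 385 (98.7%) had the same sign at 8 h, where 48.3% of all genes were positive, and 386 (99%) at 24 h, where 51% were positive. Of the 267 called lower, 263 (98.5%) and 261 (97.8%) kept their sign. Calls in the same direction at 8 h were made for 231 of the 390 (59.2%, and 35.8% of the 646 genes called higher at 8 h) and 143 of the 267 (53.6%, and 41% of the 349 called lower). At 24 h they were made for 173 (44.4%, and 62.2% of the 278 called higher) and 155 (58.1%, and 50.2% of the 309 called lower). In those conditions 3.52% and 1.9% of all genes at 8 h, and 1.51% and 1.68% at 24 h, were called higher and lower. No gene was called in the opposite direction. In all 3 conditions 140 genes were called higher and 114 lower, and the 19 genes called in every fit with arrays left out were among them.

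The median change of the genes called higher was 0.458 without TGFβ, 0.383 at 8 h and 0.349 at 24 h, and that of the genes called lower was -0.519, -0.412 and -0.45. Genes are chosen here by their untreated values, so smaller values in other arrays carry no test. The difference between conditions was tested itself and no gene was called, at 8 h or at 24 h, by limma's interaction contrast. At an unadjusted p under 0.05 there were 625 genes (3.4%) at 8 h and 705 (3.84%) at 24 h, and without replicate 1 the interaction called 58 and 80 genes. For CNN2 the siRNA effect was 1.73 without TGFβ, 1.63 at 8 h and 1.67 at 24 h, and for PRKCI it was -2.17, -2.22 and -2.34. PRKCZ fell in each condition, at -1.07, -1.04 and -1.10. ITGA2 had -1.11 without TGFβ, -0.33 at 8 h and -0.57 at 24 h, and HMOX1 1.00, 0.41 and 0.54. KITLG had 1.15, 0.61 and 0.23, and ITGB8 0.80, 0.26 and 0.06. TGFBR2 had -0.80, -0.52 and -0.68 and CXCL8 -1.36, -0.91 and -1.36. For these genes the differences between conditions did not pass the test.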

How the data were processed

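RNA of 18 A549 cultures, labelled from 200 ng each per the labels, was hybridised to Affymetrix whole-transcript arrays. The deposited values are RMA intensity on a linear scale, from 21.2 to 51230; the tools named for the authors' step, per the submitters' processing notes, are RMA and Partek, with versions and annotation not given in the sources used here. Log2 was taken once and nothing else was normalized. Of 28869 probe sets, 19310 had 1 gene symbol, 1752 several and 7807 none in the platform table used. The brightest probe set stood for each gene (933 left out), which gave 18377 genes.

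Limma 3.58.1 in R 4.3.3 fitted 6 group means over 18 arrays with empirical Bayes moderation (12 residual and 18.1 total degrees of freedom), and was tested on simulated data. P-values were adjusted by Benjamini-Hochberg over all genes, and under 0.05 counted as called. Depth is not defined for arrays: the 3 per group limit precision, and the median SE of a change was 0.1. The labels call the replicates biological without saying from which cultures. Named genes were PRKCI, PRKCZ, the 12 highest and 12 lowest called genes with arms that did not overlap, up to 5 members of each list by p, and the genes furthest apart in replicate 1 or in replicates 2 and 3. Also named, outside these rules, were CDH1, CXCL1, NFKB1, NFKB2, LAMB1, LAMC1, NQO1, PGD and genes called in every fit with arrays left out. The comparison, the 28 lists (550 of 592 members measured) and the rules were chosen with earlier results of these data known. Alternatives were a replicate block, quantile normalization, array weights, median centring, dim probe sets left out, trended and robust moderation, only the 6 untreated arrays, all probe sets, a 1.5-fold minimum, and leaving out arrays.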

Additional observations from a re-analysis of the deposited data

Results flagged for a closer look

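For SNAI1, an EMT transcription factor gene, the fitted siRNA effect had opposite signs in 2 conditions, with every same-number difference going one way in each. It was -0.17 after 8 h of TGFβ and 0.44 without TGFβ. Neither effect passed the test by itself (limma adjusted p = 0.619 at 8 h and 0.2 without TGFβ), and the arms overlapped at 8 h. The difference, 8 h minus untreated, was -0.61 (SE 0.252), and the interaction contrast did not pass limma's test over all genes (adjusted p = 1).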

How the results depend on the processing

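All 657 called genes kept their direction in each alternative that tested them, which is no test of them. The replicate block, trended and robust moderation and the 6 untreated arrays alone left the fitted change as it was (-2.17 for PRKCI in each). Fits with arrays left out reused most of the arrays on which the genes were called. Against 657 genes, 2956 were called with array weights, 375 with only the 6 untreated arrays and a replicate block, and 194 with a 1.5-fold minimum. Counts of 441 to 762 came from the replicate block over 18 arrays (441), only the 6 untreated arrays (563), trend and robust moderation (657), all probe sets (662), median centring (675), quantile normalization (744) and the filter on dim probe sets (762). Leaving out arrays or replicate numbers gave 27 to 1513 genes. Fewer arrays leave fewer degrees of freedom. The fits without replicate 1, 2 or 3 left out equal numbers of arrays and called 1513, 30 and 27 genes. The cause of these differences was not tested. Of all 657 called genes, 435 were still called with the replicate block, 572 without replicate 1, 30 without replicate 2 and 27 without replicate 3. Of the 79 called genes named, 68, 79, 22 and 21 were still called in these fits. Some of the 79 were named because they were called in every fit with arrays left out, so their kept calls were fixed. The filter on dim probe sets kept 74 of the 79, all of them still called, and dropped the others as too dim.

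The labels state no pairing, so the replicate number was not taken as pairing in the main fit. Deviations of the untreated siPKCiz and siControl arrays of the same number correlated at 0.0185, 0.146 and 0.0733 across genes. The arrays given TGFβ did not enter these correlations, which therefore cannot show deviations shared within an siRNA arm across conditions. With array weights, the replicate 1 arrays of all 6 groups had the lowest weights of the 18, from 0.409 to 0.698, against at least 0.706 elsewhere. What the replicate 1 arrays share was not tested. PRKCI was called under each alternative, from -2.21 to -2.10 with arrays left out. PRKCZ ran from -1.54 to -0.81 with arrays left out, and missed the threshold with only the 6 arrays and a replicate block (-1.07, adjusted p = 0.0879). The interaction called 0 to 58 genes at 8 h and 0 to 80 at 24 h with arrays left out, and 1 gene at 24 h with array weights. FGA and FGB missed the threshold with the replicate block over 18 arrays (adjusted p = 0.0658 and 0.0568).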
